A study of Homo sapiens with 4 samples.

Results

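The mucin genes were followed by RNA-seq in SW1990, an established line of human pancreatic cancer cells. The set was chosen by gene symbol and holds 10 of the 58735 genes in the count table. Of these, 6 encode membrane mucins (MUC1, MUC3A, MUC4, MUC13, MUC16 and MUC20) and 4 encode gel-forming mucins (MUC2, MUC5AC, MUC5B and MUC6). Cells grown in DMEM received vehicle (2 libraries) or gomisin G at 10 µM (2 libraries) for 24 h, gomisin G being a plant lignan from Schisandra. The labels used here name neither the vehicle nor whether the replicates were separate cultures, so the spread between libraries may be technical. Total counts per library ran from 14580848 to 15245770. The series concerns the Hippo-YAP pathway, and the comparison asks which mucin transcripts differ between gomisin G and vehicle.

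Mucins are large glycoproteins built around stretches rich in serine, threonine and proline that carry dense O-linked glycans. Membrane mucins are anchored by a transmembrane segment, cover the apical surface and can signal through a short cytoplasmic tail. Gel-forming mucins are secreted, link through cysteine-rich ends into polymers and give mucus its viscosity. In the normal pancreatic duct MUC1 is the best known surface mucin, and MUC5AC and MUC4 are known for appearing in precursor lesions and ductal carcinoma.

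The label of the line was compared with marker genes. Of 8 markers of pancreatic ductal epithelium, KRT8, KRT18, KRT19, EPCAM, CDH1, SOX9 and CLDN4 were abundant, while the duct keratin KRT7 had only 13 to 30 counts per library. The intestinal factor gene CDX2 averaged 400.3 CPM (counts scaled to library size) in vehicle and the intestinal cadherin gene CDH17 averaged 201.9 CPM. Of the 8 ductal markers CLDN4, a tight junction gene, rose with gomisin G (log2 change 1.22, edgeR adjusted p = 0.0233), where 0.922% of all tested genes rose. KRT8 (log2 change -0.49), KRT18 (-0.45) and CDH1 (-0.39) had both gomisin G libraries below both vehicle libraries without passing the test. Besides CLDN4, KRT19 (0.68) and EPCAM (0.29) had both above, also without passing. Of all tested genes 27.3% were separated downward and 27% upward. The log2 change was positive for 5 of the 8 ductal markers and negative for 3. Of 5 intestinal markers KRT20, an intestinal keratin gene (log2 change 2.61, edgeR adjusted p = 0.00755), and LGALS4, a gut galectin gene (1.58, adjusted p = 0.0387), rose as well. VIL1 (0.98, edgeR adjusted p = 0.0686) and CDH17 (0.36, edgeR adjusted p = 0.265) had both gomisin G libraries above both vehicle libraries without being called. CDX2 was the most abundant of the 5 and the only 1 with a negative log2 change (-0.14, edgeR adjusted p = 0.642). Its gomisin G libraries both lay below both vehicle libraries. The part of these markers in the mucin values was not tested. Summed levels of the immune, endothelial, acinar and endocrine marker lists stayed at or below 0.966 CPM in every library. The fibroblast list of 5 genes summed to 4.62 and 4.91 CPM in vehicle and 8.57 and 11.7 CPM with gomisin G, all but 1 count of it from COL1A1 and PDGFRB, with COL1A2 and LUM at 0. Whether that difference bears on the mucin values was not tested.

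In vehicle the cells expressed a few mucin genes at low to moderate levels and others hardly at all. Levels are compared between genes per kilobase of the deposited gene length (CPM per kb), as a longer transcript gathers more reads. By that scale MUC13, a transmembrane mucin of the intestinal surface, led with 3.84 ± 0.305 CPM per kb in vehicle (mean ± SD, n = 2). MUC1 followed at 1.503 ± 0.0877 and MUC20, a small membrane mucin, at 1.11 ± 0.178 CPM per kb. The gastric gland mucin MUC6 stood at 0.726 ± 0.136, the airway and stomach surface mucin MUC5AC at 0.566 ± 0.0508, and the intestinal goblet cell mucin MUC2 at 0.212 ± 0.0533 CPM per kb. MUC3A, an intestinal membrane mucin, stood at 0.108 ± 0.0405, MUC5B at 0.0257 ± 0.0108 and MUC4 at 0.00631 ± 0.00892 CPM per kb, and MUC16 was at 0. The libraries of neighbours in this order did not overlap in vehicle, except for MUC4 and MUC16. The scale does not correct for stretches of 75 bases that repeat within a gene (37.1% in MUC1, 0% in MUC13). Nor does it correct for stretches found in other genes (64.3% in MUC20, 0% in MUC13). Whether reads in such stretches were counted is not known. The order and the shares given next therefore describe counted reads and may differ from transcript amounts.

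With gomisin G the order of levels stayed the same at the top and was crossed at 1 place. MUC13 averaged 5.46, MUC1 2.68 and MUC20 1.73 CPM per kb. MUC5AC (0.835) then stood above MUC6 (0.782), but the libraries of these 2 genes overlapped, as did those of MUC5B and MUC4. MUC13 alone held 45.9 to 48.8% of the summed level per kb of the 10 genes in the 4 libraries. MUC1 held 17.3 to 19.9% of it in vehicle and 22.1 to 23.0% with gomisin G.

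**Figure D1:**
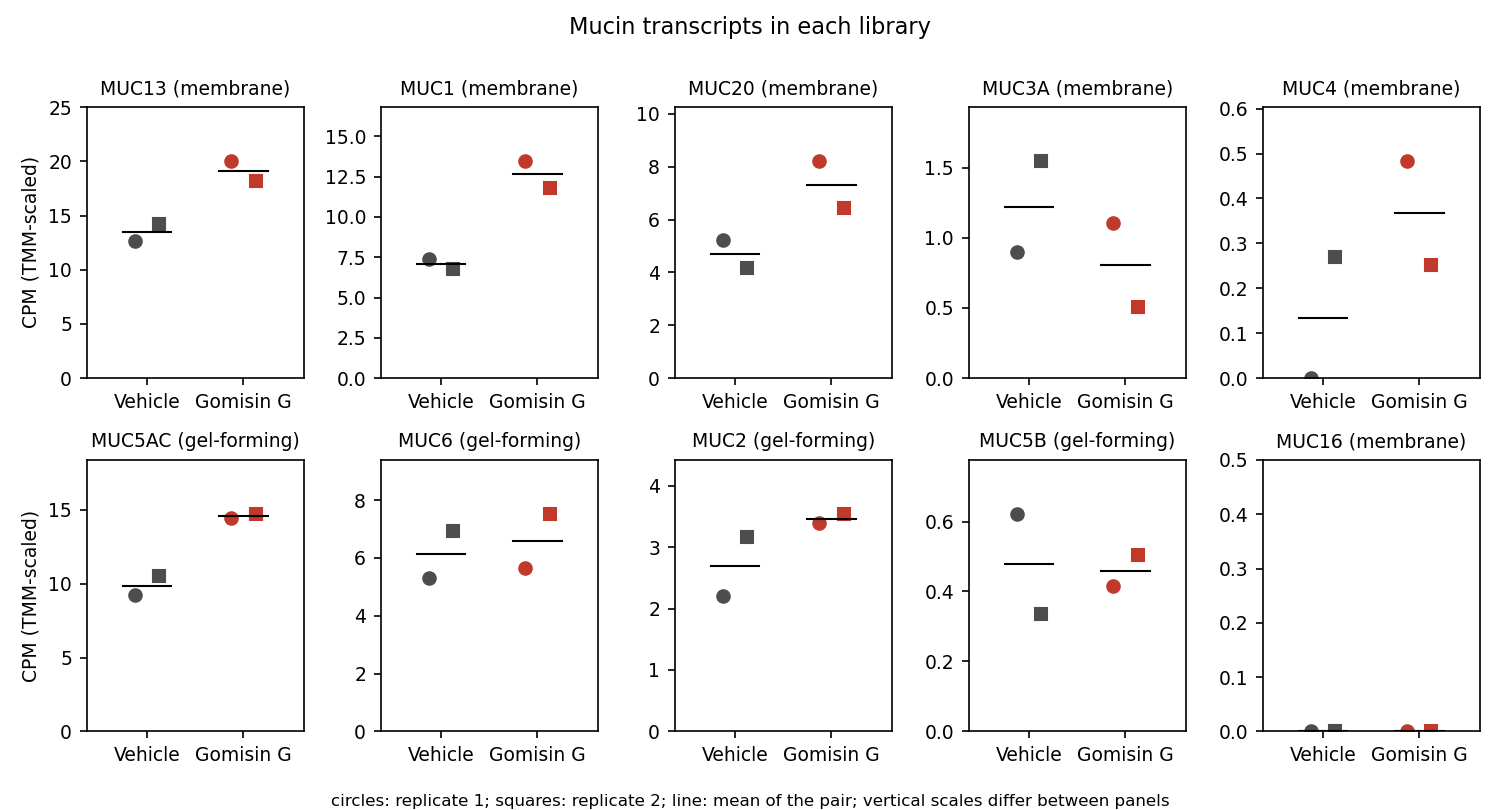
Each panel plots 1 mucin gene, with its level in CPM on the vertical axis (scales differ between panels) for both vehicle libraries (grey) and both gomisin G libraries (red); circles are replicate 1, squares replicate 2 and lines the mean of the pair. MUC1, MUC13, MUC20, MUC5AC and MUC2 have both gomisin G libraries above both vehicle libraries, and MUC16 is at 0 throughout.

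Of the 10 mucin genes 7 passed the expression filter, and no tested mucin gene passed the test between gomisin G and vehicle. Genes were compared with edgeR's quasi-likelihood test, and a gene was called at a Benjamini-Hochberg adjusted p below 0.05 over all 15721 tested genes. By that rule 0 of 7 mucin genes were called, against a background of 1.83% of all tested genes. DESeq2 (background 6.7%, with 3.43% called higher) called 0 of the 6 mucin genes to which it gave an adjusted p (MUC3A had none), and limma voom (background 1.68%) called 0 of the 7. At an unadjusted p below 0.05 edgeR found 4 of the 7, where 20.6% of all tested genes reached that level. That count was 2 with DESeq2, 1 without vehicle replicate 1 and 0 without vehicle replicate 2. All 4 found by edgeR in all libraries were positive, against 10.9% of all genes. A positive log2 change (gomisin G minus vehicle) was found for 6 of the 7, against 50.7% of all genes. In 5 of the 7 both gomisin G libraries lay above both vehicle libraries, against 27% of all genes, and in 0 of the 7 both lay below, against 27.3%. Separation in either direction was common, at 54.2% of all tested genes. The median log2 change of the 7 was 0.51 beside 0.0092 over all tested genes. Genes of a family expressed in the same cells are not independent, and these counts describe these 4 libraries.

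Among the membrane mucins, MUC1 had the largest positive log2 change and the lowest adjusted p of the 7 tested genes in the fit without trend correction. With the length trend removed MUC5AC had the larger log2 change (0.84 against 0.81), and with length and GC trends removed both MUC5AC (0.61) and MUC13 (0.51) exceeded MUC1 (0.44) and had lower adjusted p-values. MUC1 (chromosome 1, 155185824 to 155192916, minus strand, GRCh38) encodes the founding membrane mucin, whose tail binds signalling proteins such as beta-catenin. It stood at 7.38 and 6.80 CPM in the vehicle libraries and at 13.5 and 11.8 CPM in the gomisin G libraries. Both gomisin G libraries were thus well above both vehicle libraries, and the vehicle pair was close together. The log2 change was 0.83 (SE 0.21, 95% interval 0.35 to 1.32), a 1.78-fold difference, and it missed the threshold with an edgeR adjusted p of 0.0862.

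The call on MUC1 depended on which library supplied the spread. With gomisin G replicate 1 left out, its log2 change was 0.73 (edgeR adjusted p = 0.0138), and with replicate 2 left out it was 0.93 (edgeR adjusted p = 0.000248). In those fits the vehicle pair alone supplies the spread, the lone gomisin G library is assumed to vary like it, and 8.25% and 18.5% of all tested genes were called higher. Without vehicle replicate 1 or 2 the adjusted p of MUC1 was 0.427 and 0.632. Its transcript is 71.2% G and C, and removing the trends of the libraries with gene length and GC content brought the log2 change to 0.44 (edgeR adjusted p = 0.241).

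The promoter of MUC1 is shown because the gene had the lowest adjusted p of the tested mucins in the uncorrected fit and because the series concerns YAP, which acts on DNA through TEAD factors. The RefSeq table (GRCh38.p14) held promoters for 6 of the 10 genes, MUC1, MUC2, MUC3A, MUC4, MUC13 and MUC16. The first 250 bases upstream of the MUC1 start (chr1:155192916-155193165, minus strand) and of the MUC13 start (chr3:124934752-124935001, minus strand) read as follows, with motif matches in capitals. Motifs were searched on both strands. The core bound by TEAD factors was spelled GGAATG. The letters of the TATA box were TATAAA. For the GC box they were GGGCGGG.
MUC1: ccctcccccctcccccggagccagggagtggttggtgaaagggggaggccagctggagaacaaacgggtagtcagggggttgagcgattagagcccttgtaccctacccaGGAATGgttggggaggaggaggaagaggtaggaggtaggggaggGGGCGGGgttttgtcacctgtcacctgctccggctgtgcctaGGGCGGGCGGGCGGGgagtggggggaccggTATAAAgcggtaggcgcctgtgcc
MUC13: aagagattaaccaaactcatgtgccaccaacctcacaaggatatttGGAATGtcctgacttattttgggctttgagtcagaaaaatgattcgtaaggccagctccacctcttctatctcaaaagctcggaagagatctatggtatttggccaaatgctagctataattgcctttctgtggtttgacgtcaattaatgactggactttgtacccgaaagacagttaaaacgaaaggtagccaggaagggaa

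The MUC1 sequence held 1 TEAD core beginning 140 bases before the start, 4 GC boxes, of which the 3 nearest the start overlap each other, and 1 TATA box 24 bases before it. The MUC13 sequence held 1 TEAD core, 204 bases before the start, and neither of the other motifs. MUC4 also held 1 TEAD core, whereas the windows of MUC2, MUC3A and MUC16 held none. The RefSeq start of MUC13 (124934751) lies inside the counted gene, which on the minus strand begins at 124953819. Both RefSeq starts of MUC16 (9065751 and 9010409) lie outside its counted gene, which begins at 8981342 on the minus strand. The RefSeq start of MUC4 (195811929) lies inside its counted gene, which begins at 195812277 on the minus strand. For MUC4, MUC13 and MUC16 the windows therefore do not sit at the start of the counted gene. Over windows running from 250 bases before to 50 after the start, 14.0% of all 35116 promoters in the table contained the TEAD core, 11.5% the TATA box and 33.1% the GC box. A match describes letters in a window and does not show binding.

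The body of the MUC1 transcript is repetitive, which bears on how its reads can be counted. The repeat is the known tandem array that carries most of the glycans. The 60-base unit found most often in the coding part of the longest annotated MUC1 transcript occurred in 19 exact copies, the first at chr1:155191820-155191879 in exon 2 of 11. The unit is shown beside the 57-base unit of MUC20, which occurred in 10 exact copies, the first at chr3:195725150-195725206 in exon 1 of 3.
MUC1: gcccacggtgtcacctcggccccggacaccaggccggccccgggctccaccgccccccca
MUC20: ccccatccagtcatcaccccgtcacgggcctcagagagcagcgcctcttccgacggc

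Of all stretches of 75 bases in the longest transcript, 37.1% occurred more than once within MUC1, 18.1% within MUC20 and 0% within MUC13. Among the gel-forming mucins the share was 23.8% for MUC5B, 17.3% for MUC2, 15.2% for MUC5AC and 0.05% for MUC6. A read inside such a repeat has several places to align, and the sources used here do not say whether such reads were counted. For MUC20 a further 64.3% of stretches of 75 bases, counted whether or not they repeat within the gene, also occurred in another gene. These were the pseudogene MUC20P1 (42.4% of the stretches) and the overlapping non-coding gene MUC20-OT1 (33.4%), so the counts of MUC20 are uncertain. MUC13 and MUC6 had 0% of their stretches in other genes, and so did MUC1.

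MUC13 (chromosome 3, 124905442 to 124953819, minus strand) was measured at 12.7 and 14.2 CPM in vehicle and at 20.03 and 18.2 CPM with gomisin G. Both gomisin G libraries were higher than both vehicle libraries. The log2 change was 0.51 (SE 0.19, 95% interval 0.075 to 0.94), with an edgeR adjusted p of 0.184. It was called only without gomisin G replicate 2 (log2 change 0.58, adjusted p = 0.00759), among the leave-out fits and the other settings tried. With the length and GC trends removed it stayed at 0.51, which differs from what that correction did to MUC1.

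MUC20 (chromosome 3, 195720882 to 195741123, plus strand) stood at 5.24 and 4.17 CPM in vehicle and at 8.22 and 6.44 CPM with gomisin G. Both gomisin G libraries were above both vehicle libraries. Its log2 change was 0.64 (SE 0.26, 95% interval 0.032 to 1.24), with an edgeR adjusted p of 0.224. It was 0.45 or 0.81 with gomisin G replicate 1 or 2 left out, and 0.81 or 0.48 with vehicle replicate 1 or 2 left out. Among the leave-out fits MUC20 was called only without gomisin G replicate 2, where the vehicle pair alone supplies the spread. The non-coding gene MUC20-OT1 on the same strand, which shares sequence with it, averaged 41.5 CPM (vehicle) and 46.5 CPM (gomisin G) with overlapping groups (log2 change 0.17, edgeR adjusted p = 0.664). The pseudogene MUC20P1 averaged 1.87 CPM and 2.45 CPM (log2 change 0.39, edgeR adjusted p = 0.574).

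The other membrane mucins gave few reads. MUC3A (chromosome 7, 100949555 to 100968346, plus strand) had 13 and 23 counts in vehicle and 16 and 8 with gomisin G. The groups overlapped, and the only negative log2 change of the 7 tested mucins was the least precise (-0.62, SE 0.56, 95% interval -1.91 to 0.67, edgeR adjusted p = 0.552). It was -1.27 with gomisin G replicate 1 left out and -0.15 with replicate 2 left out, so single libraries set its size. MUC4 (chromosome 3, 195746765 to 195812277, minus strand), a long membrane mucin that partners ERBB2, had 0 and 4 counts in vehicle and 7 and 4 with gomisin G. The ratio of its summed counts, gomisin G over vehicle, was 2.66 with an exact 95% counting interval of 0.789 to 11.5, and it was not tested for low counts. MUC16 (chromosome 19, 8848844 to 8981342, minus strand), which carries the CA125 antigen, had 0 counts in all 4 libraries. A count of 0 allows up to 3 counts, or 0.189 to 0.207 CPM, at these depths. This limit and the counting intervals cover counting error only.

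The gel-forming mucins lie together on chromosome 11, in the order MUC6, MUC2, MUC5AC and MUC5B, with gaps of 38169, 47442 and 21928 bases. Differences between these genes in their log2 change were not tested. MUC5AC (1157953 to 1201138, plus strand) had the most counts, at 9.24 and 10.5 CPM in vehicle and at 14.4 and 14.7 CPM with gomisin G. The pairs were tight and did not overlap, and gomisin G was higher. The log2 change of 0.56 (SE 0.20, 95% interval 0.11 to 1.02) had an edgeR adjusted p of 0.169. With gomisin G replicate 1 or 2 left out the log2 change was 0.57 or 0.55, and with vehicle replicate 1 or 2 left out 0.47 or 0.65. MUC5AC was called when either gomisin G library was left out and not when a vehicle library was left out. In the former fits the vehicle pair alone supplies the spread, with the high shares of called genes given for MUC1.

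MUC2 (1074875 to 1110511, plus strand) stood at 2.21 and 3.16 CPM in vehicle and at 3.39 and 3.54 CPM with gomisin G. The gomisin G libraries were both higher, but the gap to the nearer vehicle library was smaller than the distance between the vehicle libraries. The log2 change was 0.36 (SE 0.31, 95% interval -0.36 to 1.09, edgeR adjusted p = 0.536), and it was 0.12 without vehicle replicate 1 and 0.65 without vehicle replicate 2. MUC6 (1012821 to 1036706, minus strand) stood at 5.31 and 6.93 CPM in vehicle and at 5.66 and 7.51 CPM with gomisin G. Its groups overlapped, with replicate 1 low and replicate 2 high in both. The log2 change was 0.11 (SE 0.27, 95% interval -0.51 to 0.72, edgeR adjusted p = 0.848), which leaves room for a change of either sign, and it was -0.076 without vehicle replicate 1 and -0.11 without gomisin G replicate 2. MUC5B (1223066 to 1262172, plus strand), a gel-former of airway and gallbladder mucus, had 9 and 5 counts in vehicle and 6 and 8 with gomisin G, a ratio of 0.968 with an exact 95% counting interval of 0.428 to 2.19, and was not tested.

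**Figure D2:**
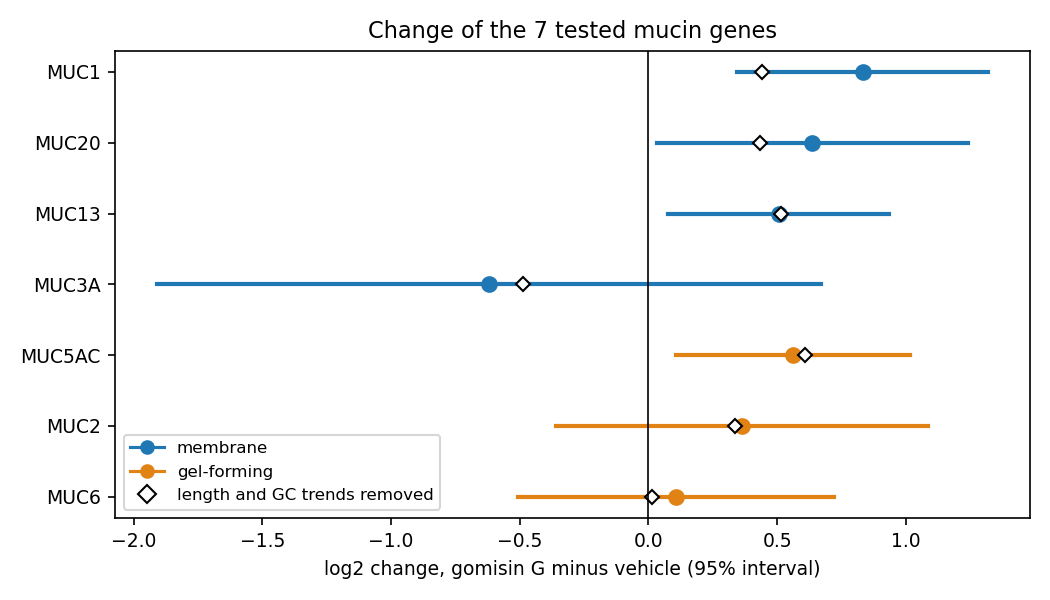
The horizontal axis gives the log2 change (gomisin G minus vehicle) of each tested mucin gene as a filled point with its 95% interval, membrane mucins in blue and gel-forming mucins in orange; open diamonds are the values with length and GC trends removed. The intervals of MUC1, MUC13, MUC20 and MUC5AC lie above 0, and the diamond of MUC1 lies at 0.44.

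Membrane and gel-forming mucins were then set side by side. The median log2 change was 0.57 over 4 tested membrane mucins and 0.36, the value of MUC2, over 3 tested gel-forming mucins. Of the membrane mucins 3 were positive with non-overlapping groups and 1 was negative. Of the gel-forming mucins all 3 were positive and 2 had non-overlapping groups. Over all tested genes 50.7% were positive and 27% had both gomisin G libraries above both vehicle libraries. With 4 and 3 genes these counts do not separate the classes. The summed level of all membrane mucins was 26.2 and 27.0 CPM in vehicle and 43.3 and 37.2 CPM with gomisin G, a ratio of means of 1.51. That of all gel-forming mucins was 17.4 and 20.9 CPM in vehicle and 23.9 and 26.3 CPM with gomisin G, a ratio of means of 1.31. Within each library the membrane sum exceeded the gel-forming sum by 1.51 and 1.29 times in vehicle and by 1.81 and 1.42 times with gomisin G. These ratios overlapped between the groups, so the balance of the classes did not differ beyond the spread between libraries. With 2 libraries against 2 an exact permutation test over libraries cannot reach the threshold, and none is given for a sum over chosen genes.

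Gene length differed between the classes and moved with the log2 change over all genes. The median log2 change of all tested genes was 0.22 in the 3147 genes with the shortest deposited length (up to 2165 bases) and -0.19 in the 3144 longest (from 7705 bases). Gomisin G replicate 1 stood apart in this: against the vehicle mean its medians ran from 0.30 in the shortest genes to -0.35 in the longest, beside 0.083 and -0.042 in gomisin G replicate 2. All 3 tested gel-forming mucins and MUC3A belong to the longest genes, at 8428 to 17448 bases, whereas MUC1 (4717 bases), MUC20 (4249 bases) and MUC13 (3499 bases) are shorter. With the length trend removed the medians were 0.50 for membrane and 0.59 for gel-forming mucins, so the order of the classes turned, as it also did without vehicle replicate 2 (0.53 and 0.65). Without vehicle replicate 1 the gel-forming median was 0.12 and the membrane median 0.61, so the distance between the classes rested on single vehicle libraries. In these fits the gel-forming median was the value of MUC2, which had 32 to 56 counts per library. MUC5AC was 0.47 or 0.65 with vehicle replicate 1 or 2 left out, and MUC6 -0.076 or 0.31. With the length trend removed MUC5AC stood at 0.84 (edgeR adjusted p = 0.0596). With length and GC trends removed the medians were 0.44 and 0.34.

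**Figure D3:**
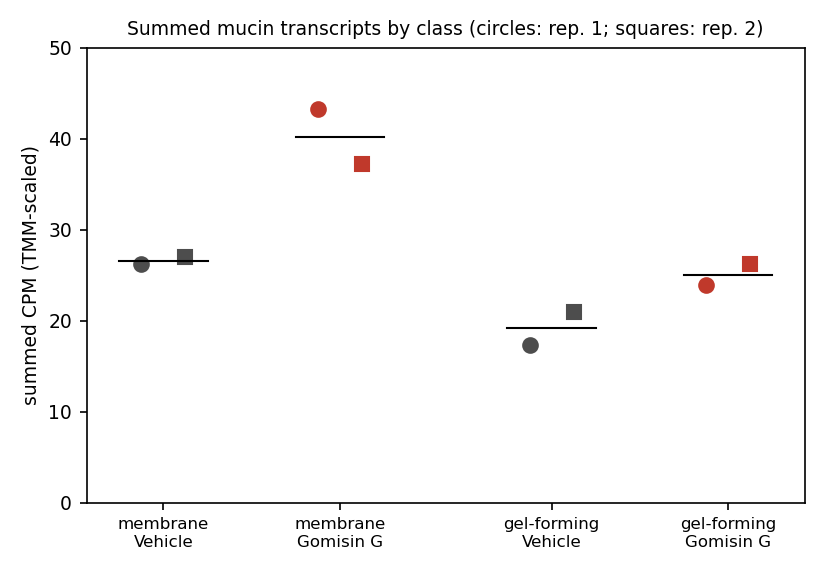
The vertical axis gives the summed CPM of the 6 membrane and the 4 gel-forming mucin genes in each library (grey for vehicle, red for gomisin G, circles for replicate 1, squares for replicate 2), with lines at the mean of each pair. The membrane sum is 26.2 and 27.0 CPM in vehicle and 43.3 and 37.2 CPM with gomisin G.

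Genes that build and handle mucins were examined as lists. Among 14 genes of mucin folding, packaging and mucus partners 9 were tested, 1 rose and 0 fell (0.922% and 0.903% of all tested genes were called higher and lower). The log2 change was above 0 in all 9 (50.7% of all genes), and its median was 0.80. TFF1, TFF2, TFF3 and VAMP8, at 551 to 1168 bases, belong to the shortest genes, whose median log2 change was 0.22. FCGBP, at 12961 bases, belongs to the longest. TFF1 and TFF2 had only 3 to 28 counts per library. The list was not compared with genes of matched length. ERN2, which encodes the IRE1-beta sensor of the endoplasmic reticulum in mucous cells, stood at 7.31 and 9.29 CPM in vehicle and at 29.8 and 28.5 CPM with gomisin G. The gomisin G pair was far above the vehicle pair, with a log2 change of 1.81 (SE 0.20, edgeR adjusted p = 0.0109). ERN2 was called in all 14 alternative fits, with log2 changes of 1.61 to 1.99. AGR2, a disulfide isomerase gene needed to fold MUC2, and STXBP2, a gene of granule exocytosis, are named after their values were seen. AGR2 stood at 44.4 and 41.9 CPM in vehicle and at 89.4 and 61.0 CPM with gomisin G (log2 change 0.80, edgeR adjusted p = 0.0920), and was called by DESeq2 (adjusted p = 0.0201) and by edgeR after both trends were removed (adjusted p = 0.0480). STXBP2 stood at 85.7 and 73.2 CPM and at 155.3 and 110.0 CPM (log2 change 0.74, edgeR adjusted p = 0.102, DESeq2 adjusted p = 0.0255). With gomisin G replicate 1 left out these log2 changes were 0.50 for AGR2 and 0.47 for STXBP2. With vehicle replicate 1 or 2 left out the adjusted p was 0.379 or 0.520 for AGR2 and 0.373 or 0.717 for STXBP2. The goblet cell genes CLCA1 and ZG16 had 0 counts in every library, whereas TFF3 and FCGBP of the same list were detected. TFF3 had 36 to 93 counts per library (log2 change 0.90, edgeR adjusted p = 0.227). FCGBP had 30 to 75 (log2 change 0.93, edgeR adjusted p = 0.159). For both genes the gomisin G libraries lay above both vehicle libraries without passing the test.

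Of 20 transcription factor genes of mucous and foregut epithelium 14 were tested, 2 rose and 0 fell (against 0.922% and 0.903% of all tested genes), with a median log2 change of 0.30. ELF3, an epithelial ETS factor gene, stood at 21.3 and 17.2 CPM in vehicle and at 63.0 and 65.3 CPM with gomisin G. Its log2 change was 1.73 (SE 0.18, edgeR adjusted p = 0.00784), and all 14 alternative fits called it. CDX1, an intestinal homeobox gene, stood at 0.276 and 0.740 CPM in vehicle and at 2.97 and 3.16 CPM with gomisin G. These were only 4 and 11 counts in vehicle and 43 and 50 with gomisin G. The log2 change of CDX1 was 2.57 (SE 0.47, edgeR adjusted p = 0.0409), with no value under the filter of at least 50 counts in 2 samples. Its adjusted p was above the threshold under limma voom (0.0548), the legacy fit (0.0531), length and GC trends removed (0.0514) and without vehicle replicate 1 (0.140). FOXA3, a forkhead gene of goblet cells named after its values were seen, lay just outside the threshold at 10.8 and 12.9 CPM in vehicle and 29.01 and 21.8 CPM with gomisin G (log2 change 1.10, edgeR adjusted p = 0.0509, DESeq2 adjusted p = 0.00314). SPDEF, the ETS factor gene of goblet cell maturation, had 1 count in each vehicle library and 0 with gomisin G.

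The enzymes of mucin-type O-glycosylation gave 1 call, a decrease. Of 20 GalNAc-transferase genes, whose products place the first sugar on serine or threonine, 11 were tested. Of these 0 rose and 1 fell (against 0.922% and 0.903% of all tested genes). The log2 change was positive for 3 and negative for 8. Its median of -0.27 was the value of GALNT4, which had 1 to 19 counts per library. The 11 genes were 3137 to 10496 bases long, and the list was not compared with genes of matched length. GALNT12, which encodes the transferase that fell, stood at 19.73 and 19.99 CPM in vehicle and at 8.98 and 9.97 CPM with gomisin G. Its log2 change was -1.07 (SE 0.19, edgeR adjusted p = 0.0373), and the call was lost without vehicle replicate 1 (adjusted p = 0.166) or 2 (0.188). Of 12 genes of core, extension and sialylation enzymes 9 were tested, with a median of 0.072. Of these edgeR called 0 (1.83% of all tested genes), and 3 had an unadjusted p below 0.05 (20.6% of all tested genes). GCNT1, which makes core 2 branches, had a log2 change of -0.99 (edgeR adjusted p = 0.0548, DESeq2 adjusted p = 0.0164). GCNT3, the mucin-type branching enzyme gene, had a mean of 0.342 CPM under vehicle and one of 1.07 CPM under gomisin G (log2 change 1.61, edgeR adjusted p = 0.201).

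Other mucins and mucin-like genes gave no call. Of 15 such genes 4 were tested, all with a negative log2 change and a median of -0.22, where 50.7% of all tested genes were positive. By edgeR 0 of the 4 were called, against 1.83% of all tested genes. An unadjusted edgeR p below 0.05 was found for 0 of the 4, against 20.6% of all tested genes. PODXL, the podocalyxin gene, had a mean of 187.8 CPM under vehicle and one of 136.0 CPM under gomisin G (log2 change -0.47, edgeR adjusted p = 0.314), which 1 library decided. Its log2 change was -0.14 with gomisin G replicate 1 left out (adjusted p = 0.449) and -0.88 with replicate 2 left out (adjusted p = 4.83e-11), in a fit that called 6322 of 16377 genes. CD164, the endolyn sialomucin gene, had a log2 change of -0.23 (edgeR adjusted p = 0.414) that became 0.032 with length and GC trends removed. Genes for partners and sheddases of membrane mucins gave 9 tested genes with a median of -0.061. Of these edgeR called 0 (1.83% of all tested genes), and 1 had an unadjusted p below 0.05 (20.6% of all tested genes). ADAM10, a sheddase gene, had a log2 change of -0.49 (edgeR adjusted p = 0.215). That value was -0.26 with gomisin G replicate 1 left out, -0.76 with replicate 2 left out (adjusted p = 1.93e-08) and -0.16 after correction for length and GC content. The surface protease gene MMP14, which can release MUC1, had a log2 change of 0.40 (edgeR adjusted p = 0.305), and of 0.20 or 0.63 with vehicle replicate 1 or 2 left out. MSLN, whose product mesothelin binds MUC16, had 2 to 5 counts per library.

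**Figure D4:**
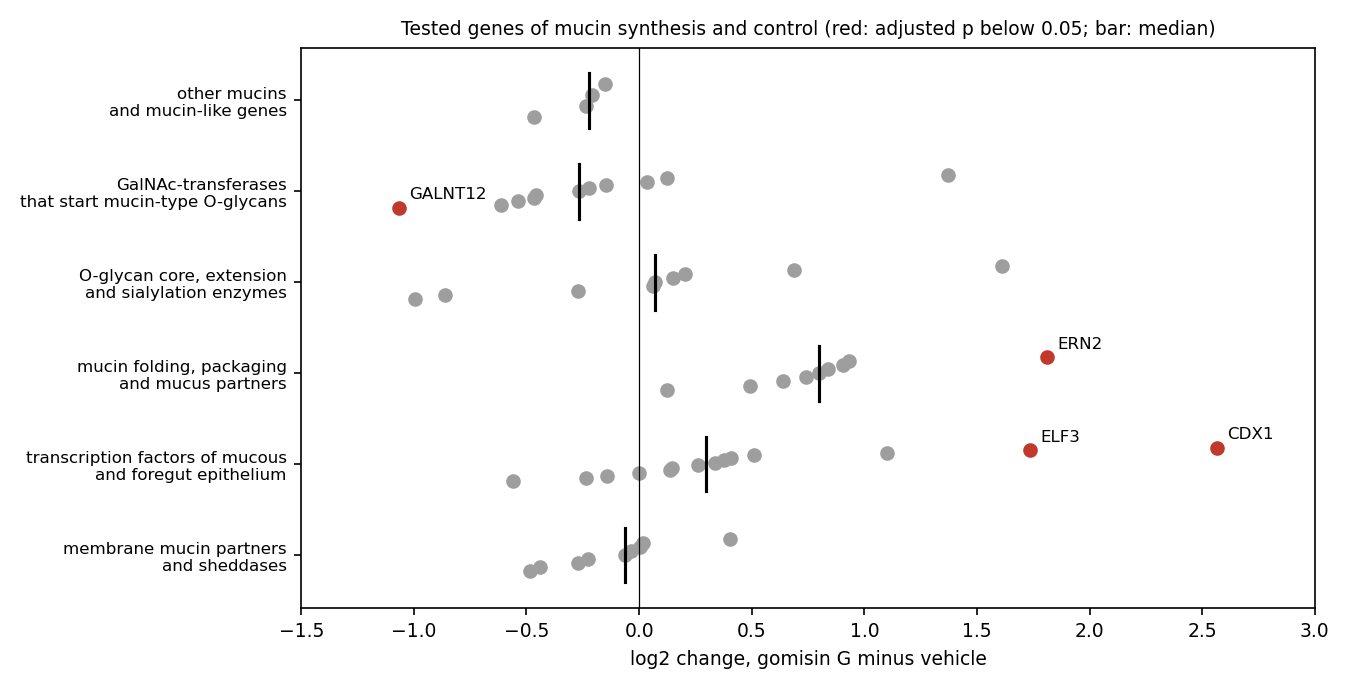
The horizontal axis gives the log2 change (gomisin G minus vehicle) of each tested gene of 6 lists around the mucins, 1 row per list; red points have an adjusted p below 0.05 and bars mark the list medians. ERN2, ELF3 and CDX1 lie above 1.5 and GALNT12 below -1, and all 9 genes of folding, packaging and mucus partners lie right of 0.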

How the data were processed

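RNA-seq libraries of SW1990 cells, 2 with vehicle and 2 with gomisin G, were grouped by their titles. The authors deposited whole-number read counts for each gene, not normalized. Per the submitters' processing notes the authors used fastp, HISAT2, featureCounts and hg38; versions, strand use and treatment of reads with several matches are not given in the sources used here. Per the labels' protocols ribosomal RNA was removed. The series table and the sample tables differed at 0 values, and all 58735 genes had GENCODE 29 coordinates.

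Counts were tested with edgeR 4.0.16 in R 4.3.3 (default expression filter, TMM factors, robust quasi-likelihood F test, treatment as the only term, 2 residual degrees of freedom). Alternatives were RLE and upper-quartile factors, 2 other filters, DESeq2 1.42.0, limma 3.58.1 voom, the legacy fit, a replicate block, offsets (splines with 4 degrees of freedom) for length and GC content, and leaving out each library. Standard errors were derived from the F statistics, and CPM uses TMM factors. Members, lists and tests were chosen with earlier results of these data known. The genes named by rule are the 10 mucins and the called genes of each list (at most 6, otherwise the 2 with the lowest p). The protein-coding neighbours of the mucin loci and the 3 genes nearest in pattern to the mucin with the lowest adjusted p are also named by rule. Others are stated as chosen later. Outside the rule are the cell type markers and the genes sharing sequence with MUC20. So are CLCA1, ZG16, SPDEF, MSLN, GALNT4, TFF1, TFF2, TFF3, VAMP8 and FCGBP. The search for repeated stretches of 75 bases and repeat units in GENCODE 29 transcripts was added after seeing the data. Protein sequences were not used here. Coordinates are those of the files (GRCh38), and promoters are RefSeq's (GRCh38.p14).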

Additional observations from a re-analysis of the deposited data

How the results depend on the processing

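The number of mucin genes called was 0 under all normalizations, filters, tools and trend corrections tried. Leaving out 1 library in turn gave 0 to 4 called mucin genes, with 0 when a vehicle library was left out. Adding the replicate number as a replicate block gave 2 called mucin genes, MUC1 (adjusted p = 0.00392) and MUC5AC (0.0469), in a fit that called 2886 genes in place of 287. The labels do not say what a number shares, and deviations of the same-numbered libraries correlated at 0.263 over 15721 genes, with only 1 such value possible for 2 pairs. Leaving out 1 library gave medians of 0.44 to 0.69 for membrane and 0.12 to 0.65 for gel-forming mucins. The gel-forming median was the value of MUC2 in each of these fits. The membrane median was 0.44 with length and GC trends removed, and the gel-forming median was 0.59 with the length trend removed. MUC6 was -0.076 without vehicle replicate 1 and -0.11 without gomisin G replicate 2, within a leave-one-out range up to 0.31. CD164 was 0.032 with length and GC trends removed. In each case the cause was not tested. Over all genes DESeq2 called 890, the length-corrected fit 803, the length- and GC-corrected fit 494, and the fits without 1 library 135 to 6322. Of the untested genes, MUC4 had a log2 change of 1.35 and MUC5B one of -0.061 without the filter, with edgeR adjusted p-values of 0.665 and 0.989. MUC2 and MUC3A had no value with at least 50 counts in 2 samples. Applying the alternatives to genes other than the mucins was decided after seeing the data. At 14580848 to 15245770 counts per library, 3 mucin genes stayed below the level that could be tested.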

Other observations

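Genes beside the mucin loci were compared with the mucins themselves. THBS3, a thrombospondin gene that lies 2672 bases upstream of MUC1 on the same strand, stood at 9.17 and 9.29 CPM in vehicle and at 18.9 and 20.2 CPM with gomisin G. It rose by 1.08 on the log2 scale (SE 0.19, edgeR adjusted p = 0.0361), a call lost without vehicle replicate 1 (adjusted p = 0.238) or 2 (0.220). TRIM46, 853 bases from the other end of MUC1, had 2 counts in each vehicle library and 7 and 11 with gomisin G. ACHE, the acetylcholinesterase gene 52581 bases from MUC3A, rose from 2.55 ± 0.293 to 9.21 ± 0.166 CPM (mean ± SD, n = 2), a log2 change of 1.85 (edgeR adjusted p = 0.0223), whereas MUC3A had one of -0.62. TRIM56 on the other side had one of -0.20 (edgeR adjusted p = 0.548).

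Around MUC13, the integrin gene ITGB5 had a log2 change of -0.083 (edgeR adjusted p = 0.789) and HEG1, a mucin-like membrane protein gene, one of -1.02 (edgeR adjusted p = 0.136), both with gomisin G below vehicle where MUC13 was above. HEG1 was called without gomisin G replicate 2 (log2 change -1.19, adjusted p = 0.00982). The genes at the ends of the gel-forming cluster had groups that overlapped, with log2 changes of 0.13 for AP2A2 (edgeR adjusted p = 0.670) and 0.29 for TOLLIP (edgeR adjusted p = 0.403). TNK2, beyond MUC4, had one of 0.35 (edgeR adjusted p = 0.288), and APOD on the far side of MUC20 had 0 counts. Beside MUC16, MBD3L1 and OR1M1 had 0 counts as well. Without gomisin G replicate 1 TNK2 was called (adjusted p = 0.00251), and without gomisin G replicate 2 TOLLIP (0.00134) and TRIM56 (0.0128) were.

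The MUC5AC to MUC6 ratio of counts within a library, chosen after seeing the values, was 1.74 and 1.51 in vehicle and 2.55 and 1.96 with gomisin G. The gomisin G ratios were both above the vehicle ratios, and 2 libraries a group allow no exact test that could pass. Over 12697 protein-coding genes the 3 nearest to MUC1 in pattern, by Euclidean distance of centred log2 CPM over the 4 libraries, were ZCWPW1 (distance 0.0232), ACOT13 (0.0402) and EPOR (0.0406). As many as 171 genes lay within a distance of 0.2 of MUC1, so 4 libraries do not single out these 3.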
